A study of Mus musculus with 8 samples.

Results

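The genes of the proteasome were followed through 4 cultured mouse cell types, by RNA-seq for their mRNA level and by m6A-seq for methyl marks on that mRNA. They were taken as every gene whose symbol starts with Psma, Psmb, Psmc, Psmd, Psme, Psmf or Psmg and goes on with a digit, a rule that uses no measured value. It found 49 of the 15359 genes named in the deposited table, with 53 of its 19776 transcripts. Of these, 2 (Psmc3ip and Psme3ip1) carry the symbol of a proteasome gene because their protein binds its product, and the rest encode subunits, activators, an inhibitor or assembly factors.

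The proteasome is the barrel-shaped protease that breaks down proteins tagged with ubiquitin in the cytosol and the nucleus. Its core particle is a stack of alpha rings, which gate the entrance, around beta rings, which hold the cutting sites; the regulatory particle at its end has a base of ATPases that unfold the substrate and a lid that removes the ubiquitin. Immune signals such as interferon gamma replace the cutting subunits by immunoproteasome subunits that serve antigen presentation, and proteasome activity is known to be kept high in human embryonic stem cells.

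The embryonic stem cells (ESC, passage 14) and induced pluripotent stem cells (iPSC, passage 22) were kept in DMEM with KOSR and leukemia inhibitory factor. The neural stem cells (NSC, passage 16) were taken from fetal brain at E12.5 and grown in neurobasal medium and DMEM/F12 with N2, B27, EGF and bFGF, and the testicular Sertoli cells (SC, passage 2) were grown in DMEM with FBS. All 4 are of the C57BL/6 strain, and no genotype, treatment or sort is given in the labels. With 1 RNA library and 1 m6A library from each, the differences have no replicate check, and no test was made.

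Expression is given in FPKM (fragments per kilobase of transcript, scaled to the mapped fragments of the library), as the authors deposited it. The columns differ in their totals, from 394600 FPKM in iPSC to 818860 FPKM in SC, and counts of genes between cell types are also given after scaling by the median ratio over genes at 1 FPKM or more in all 4 libraries. On the log2 scale that ratio was -0.34 for ESC, -0.33 for iPSC, 0.63 for SC and 0.06 for NSC, so scaling raises the levels of the first 2 and lowers those of SC. Levels below are in deposited FPKM. Where a highest or lowest library is pointed out, a change by scaling is mostly named with it. Scaling also changes the order of some levels listed without comment. Psmd14 and Psme3, for example, were highest in SC as deposited and in iPSC after scaling. The cell type labels were checked with marker lists. The 5 pluripotency markers stood between 28.8 and 602 FPKM in ESC and between 33.0 and 554 in iPSC, and Pou5f1, Zfp42 and Esrrb were listed at 0 in NSC. In SC, 4 of the 5 Sertoli markers stood at 105 FPKM or more, with Amh at 3.32, while 3 of the 5 fibroblast and myoid markers (Acta2, Tagln and Col1a1) stood between 539.9 and 2166 FPKM. The same 3 stood at 0.247, 1.12 and 0.709 FPKM in ESC but at 18.8, 27.7 and 4.82 in iPSC. Thy1 and Pdgfrb, the rest of that list, went the other way. They stood at 0.521 and 0.198 FPKM in SC, and were not higher in iPSC (2.68 and 0.372) than in ESC (2.80 and 1.03). In NSC, Prom1 stood at 12.1 and Pax6 at 7.46 FPKM, above the other libraries. Of the other neural stem markers, Nes (9.10) and Fabp7 (0.380) were higher in SC, at 85.9 and 4.73 FPKM, and Sox1 was listed at 0 in NSC, so that 2 of 5 were highest in the library labelled NSC. Of the macrophage and blood markers, 2 of 5 were measured: Lyz2, listed at 0 in ESC and NSC, stood at 12.3 FPKM in iPSC and 5.11 in SC, and Cd74 stood at 11.9 in ESC, 4.48 in iPSC, 0.218 in SC and 0.0154 in NSC. The part of such other cells in the results below was not tested, and in a bulk library fewer cells of a type and less RNA per cell cannot be told apart.

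Many proteasome genes were highly expressed. Of the 49, 30 in ESC, 32 in iPSC, 25 in SC and 24 in NSC were at or above the 90th percentile described next. All 14 constitutive core genes lay above the 90th percentile of the genes at 1 FPKM or more in ESC, iPSC and NSC, and 13 of 14 did so in SC, where that percentile was 112.5 FPKM. Of the 17 regulatory particle genes, 14 lay there in ESC, 16 in iPSC, 12 in SC and 8 in NSC. The 49 genes took 1.16% of all summed FPKM in ESC, 1.25% in iPSC, 0.903% in SC and 0.699% in NSC. Processed copies of several of these genes exist in the mouse genome, and how reads shared with them were counted is not given in the sources used here.

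**Figure D1:**
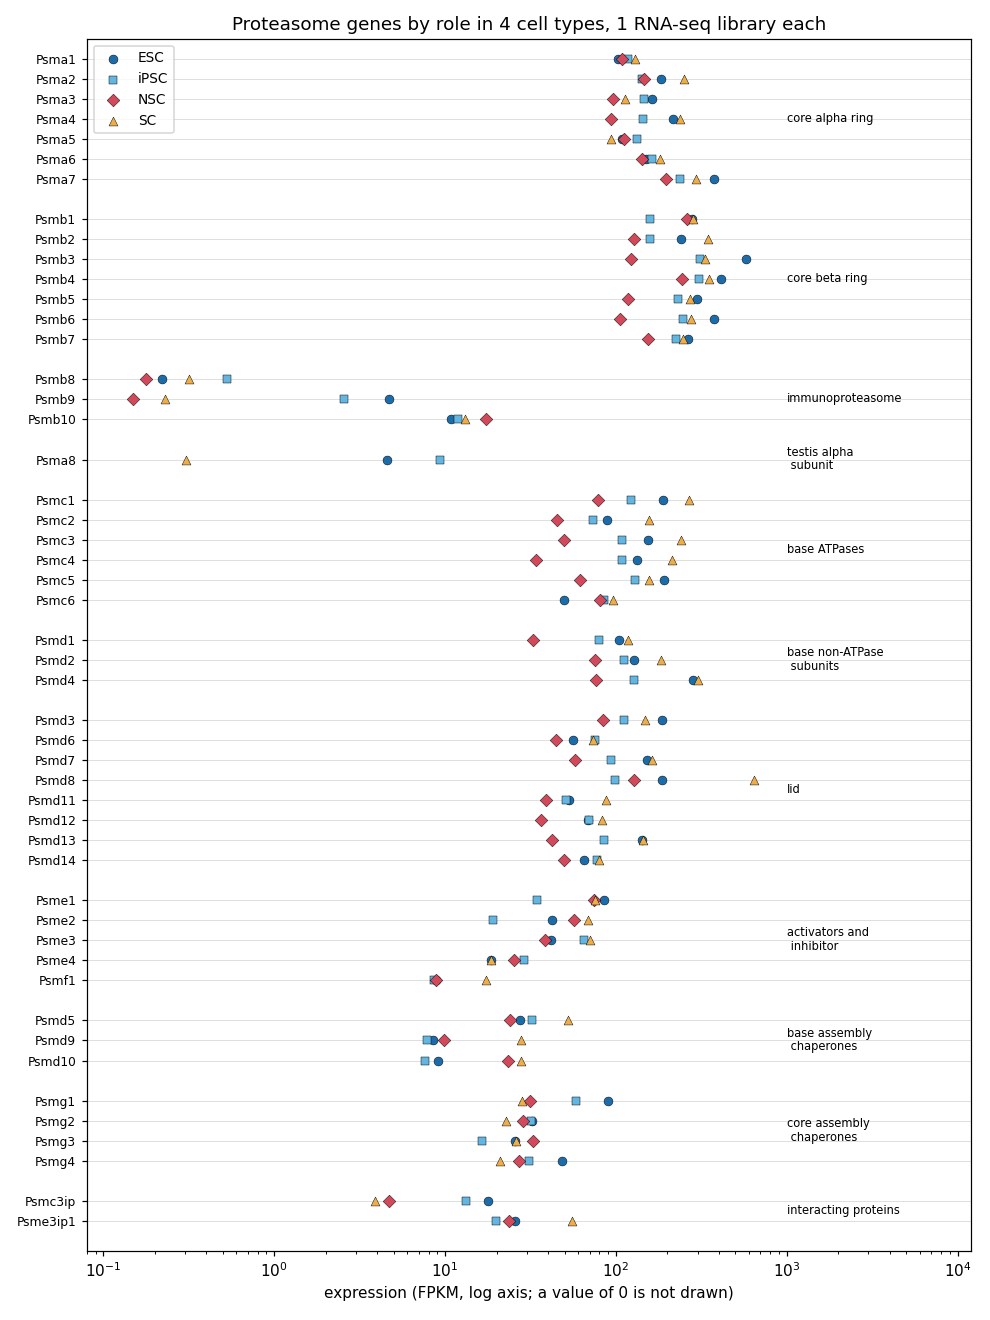
Expression of each of the 49 proteasome genes (rows, grouped by role) in FPKM on a log axis; each symbol is 1 RNA library, and a value of 0 (Psma8 in NSC) is not drawn. The NSC symbol is the leftmost in most rows of the beta ring, the base and the lid, whereas the immunoproteasome genes Psmb8 and Psmb9 lie near or under 5 FPKM in all 4 libraries.

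In deposited FPKM several genes of the alpha ring varied little between cell types. Psma1 stood at 103 FPKM in ESC, 118 in iPSC, 130.0 in SC and 108 in NSC, a spread of 1.26-fold. Psma6 was as narrow, with 150.0, 162, 181 and 143 FPKM in the same order, which is kept for values given without a cell type below (1.27-fold). In these 2 genes, as in Psma5 (109, 134, 93.9 and 111 FPKM), no cell type stood far from the others. After scaling SC was lowest for all 3, with Psma1 between 83.8 in SC and 148 in iPSC and Psma5 between 60.5 and 168. Psma7 was the highest of the ring in each library, at 372 FPKM in ESC, 237 in iPSC, 293 in SC and 196 in NSC. The widest spread in the ring, 2.56-fold, was that of Psma4, with 216 FPKM in ESC, 144 in iPSC, 238 in SC and 92.9 in NSC. It was lowest in NSC, also after scaling.

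Most genes of the beta ring stood lowest in NSC, and after scaling all but Psmb1 and Psmb4 did. Psmb3, a structural subunit and the highest core gene by its mean, stood at 573 FPKM in ESC, 311 in iPSC, 330.0 in SC and 123 in NSC. The gene of the chymotrypsin-like site, Psmb5, stood at 299, 229, 271 and 117 FPKM. Psmb6, which carries the caspase-like site, stood at 374, 245, 276 and 106 FPKM, and its NSC level was the lowest of any core beta gene in that library. For Psmb7, which carries the trypsin-like site, the levels were 265, 223, 246 and 154 FPKM. All 3 catalytic genes thus had their lowest level in NSC and their highest in ESC, also after scaling. Psmb2, a structural subunit, stood at 240.3 FPKM in ESC, 158 in iPSC, 344 in SC and 127 in NSC, and was highest in SC, but after scaling in ESC (304 against 222 in SC). Psmb1 did not follow this order: with 277 FPKM in ESC, 157 in iPSC, 282 in SC and 259 in NSC, it was the only core beta gene with its lowest level in iPSC (after scaling in SC), and the highest of the ring in NSC. Psmb4, with 412, 306, 349.8 and 242 FPKM, was the highest beta gene in SC.

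Immunoproteasome genes stood below their constitutive counterparts in all 4 cultures, and the labels name no interferon among the additives. Psmb8, the replacement of Psmb5, stood at 0.220 FPKM in ESC, 0.528 in iPSC, 0.317 in SC and 0.179 in NSC, under 1 FPKM in each library. Psmb9, the replacement of Psmb6, stood at 4.68 FPKM in ESC, 2.55 in iPSC, 0.228 in SC and 0.149 in NSC. Both pluripotent libraries thus lay above both differentiated ones, at levels that were still low. Psmb10, the replacement of Psmb7, was the most abundant of the set, with 10.9, 11.9, 13.02 and 17.3 FPKM, and was highest in NSC. It lay above the median of the genes at 1 FPKM or more in ESC (7.24), iPSC (7.64) and NSC (10.7), and below that of SC (15.1). Summed over the 3 pairs, the immunoproteasome genes reached 1.68% of their constitutive counterparts in ESC, 2.15% in iPSC, 1.71% in SC and 4.67% in NSC, a ratio within a library that its scaling does not touch. The higher share in NSC came with a constitutive sum of 377 FPKM there, against 698 to 938 in the other libraries, and a similar immunoproteasome sum (17.6 FPKM in NSC, 13.6 to 15.8 elsewhere). The testis-specific alpha subunit Psma8, which takes the place of Psma7 in male germ cells, was listed at 0 in NSC; its level was 9.35 FPKM in iPSC, 4.55 in ESC and 0.304 in SC.

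The base of the regulatory particle varied more between cell types than the alpha ring. Its 6 ATPases form the ring that pulls the substrate in. Psmc4 stood at 133 FPKM in ESC, 108 in iPSC, 212 in SC and 34.2 in NSC, a 6.21-fold range. Psmc3 stood at 154, 108, 239 and 49.7 FPKM. NSC was again lowest and SC highest in Psmc1, with 188 FPKM in ESC, 123 in iPSC, 269 in SC and 78.9 in NSC, and in Psmc2, with 88.2, 73.4, 156 and 45.0 FPKM. After scaling, NSC stayed lowest in these 4 ATPase genes, but ESC was highest, as for Psmc4 with 169 in ESC, 136 in iPSC, 137 in SC and 32.9 in NSC. Psmc5 (190 FPKM in ESC, 129 in iPSC, 156 in SC and 61.5 in NSC) was highest in ESC, also after scaling. Psmc6 departed from its partners: it stood at 49.8 FPKM in ESC, 85.0 in iPSC, 96.0 in SC and 81.0 in NSC, so that it was the lowest ATPase gene in ESC and the highest in NSC.

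The other base subunits are the large scaffolds Psmd1 and Psmd2, on which ubiquitin receptors and shuttle proteins dock, and the ubiquitin receptor Psmd4. Psmd1 stood at 104 FPKM in ESC, 79.4 in iPSC, 118 in SC and 32.7 in NSC. The level of Psmd2 was 127, 111, 183 and 75.6 FPKM. Psmd4 stood at 283 FPKM in ESC and 302 in SC, against 127 in iPSC and 76.1 in NSC. All 3 had their lowest level in NSC, also after scaling; SC was highest in deposited FPKM, but ESC after scaling (for Psmd2, 161 in ESC and 118 in SC).

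In the lid, Psmd8 stood apart. This subunit, which joins the lid last during assembly in yeast, stood at 187 FPKM in ESC, 98.9 in iPSC, 646 in SC and 128 in NSC, the highest deposited value of any proteasome gene. After scaling SC was still its highest library, at 416, but Psmb3 in ESC was higher, at 725. Psmd14, the enzyme that cleaves the ubiquitin chain off the substrate, stood at 65.3, 77.7, 79.8 and 49.8 FPKM. Its structural partner Psmd7 varied more, with 151 FPKM in ESC, 94.0 in iPSC, 162 in SC and 57.2 in NSC. Psmd13 showed the same order as Psmd7, with 141, 84.5, 144 and 42.2 FPKM, and Psmd3 was highest in ESC, with 185, 111, 148 and 84.1 FPKM. After scaling Psmd7 and Psmd13 were highest in ESC too (192 and 179). In SC (104 and 92.8) they were then lower than in iPSC (118 and 106). Psmd11, which clamps the lid to the core and is known for a high level in human embryonic stem cells, was the lowest lid gene by its mean: it stood at 53.3 FPKM in ESC, 51.1 in iPSC, 87.9 in SC and 39.1 in NSC. SC was thus its highest library in deposited FPKM, but after scaling it was higher in ESC (67.5) and iPSC (64.1) than in SC (56.6) and NSC (37.6). Psmd12 (68.8, 69.9, 82.6 and 36.3 FPKM) and Psmd6 (55.9, 75.1, 73.5 and 44.4 FPKM) were lowest in NSC as well, so that in the lid every gene but Psmd8 had its lowest level there, and after scaling Psmd8 too.

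Activators that cap the core in place of the regulatory particle showed other orders. Psme1 and Psme2 form the ring that interferon gamma induces. Psme1 stood at 84.9 FPKM in ESC, 34.4 in iPSC, 74.9 in SC and 74.0 in NSC, and Psme2 at 42.4, 19.1, 68.8 and 56.7 FPKM. Both were lowest in iPSC, also after scaling. A transcript that the RefSeq table also gives to Psme2, NM_001029855, and that may belong to a copy of the gene, added 28.6 FPKM in ESC, 1.60 in iPSC, 17.9 in SC and 5.13 in NSC. Psme3, the nuclear activator, stood at 41.8 FPKM in ESC, 64.9 in iPSC, 70.2 in SC and 38.2 in NSC. Psme4, an activator tied to histone breakdown, was lower in ESC (18.5) and SC (18.5) than in iPSC (29.0) and NSC (25.3). The inhibitor Psmf1 was the lowest of this set, at 8.89 FPKM in ESC, 8.58 in iPSC, 17.3 in SC and 8.83 in NSC, with SC highest; after scaling it stood at 11.3, 10.8, 11.2 and 8.49, and SC was no longer apart.

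The chaperones that assemble the base and the core differed in their order of levels. Psmd9, a chaperone of the base, stood at 8.49 FPKM in ESC, 7.86 in iPSC, 27.9 in SC and 9.80 in NSC. Psmd10, the base chaperone also called gankyrin, stood at 9.11 and 7.58 FPKM in ESC and iPSC, against 27.6 in SC and 23.2 in NSC. For the third base chaperone, Psmd5, the levels were 27.4, 32.2, 52.4 and 23.9 FPKM. SC was thus the highest library for all 3 in deposited FPKM, but after scaling for Psmd9 only, with Psmd10 highest in NSC and Psmd5 in iPSC. Among the chaperones that build the alpha ring, Psmg1 stood at 89.7 FPKM in ESC, 58.3 in iPSC, 28.2 in SC and 31.4 in NSC. Its partner Psmg2 was flatter, with 32.4, 31.7, 22.8 and 28.5 FPKM. Psmg4 stood at 48.6, 30.9, 20.9 and 27.2 FPKM, and Psmg3 at 25.6, 16.4, 25.9 and 32.7 FPKM. Of these 4 genes, Psmg1, Psmg2 and Psmg4 had their lowest level in SC, and after scaling all 4 did. Psmc3ip, a recombination factor of meiotic cells named for binding Psmc3, stood at 17.8, 13.2, 3.87 and 4.67 FPKM, higher in both pluripotent libraries. Psme3ip1, a partner of Psme3, stood at 25.6, 19.7, 55.0 and 23.6 FPKM.

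The first comparison set both pluripotent libraries against both differentiated ones. Psmb9, Psma8 and Psmc3ip were at least 2-fold higher in both ESC and iPSC than in both NSC and SC on the log2(FPKM + 1) scale, which understates changes at low levels. Psmd10 was at least 2-fold higher in both NSC and SC. These were 3 and 1 of the 48 genes that reached 1 FPKM in any library, whereas 5% of all 13577 such genes were higher in the pluripotent pair and 12.49% in the differentiated pair. None of the 14 constitutive core genes and 17 regulatory particle genes was on either side. The median log2 difference of the 48 genes was 0.21, against -0.64 over all genes. After scaling, the medians were 0.88 and -0.12, Psmg1 joined the genes higher in the pluripotent pair and Psmd10 left the other side. Among all genes the counts changed from 679 and 1696 to 1145 and 888 (8.46% and 6.56%). Without SC, 9 proteasome genes were higher in the pluripotent cells, with Psmb3, Psmb6, Psmc3, Psmc4, Psmc5 and Psmd1 added, and at a pseudocount of 5 there were 0. Without ESC, 3 were higher in the differentiated cells (Psmd10, Psme1 and Psme2), and 4 without NSC (Psmd8, Psmd9, Psmd10 and Psme3ip1). The direction of the median rested on single libraries too, since it was -0.0092 without ESC and -0.35 without NSC.

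**Figure D2:**
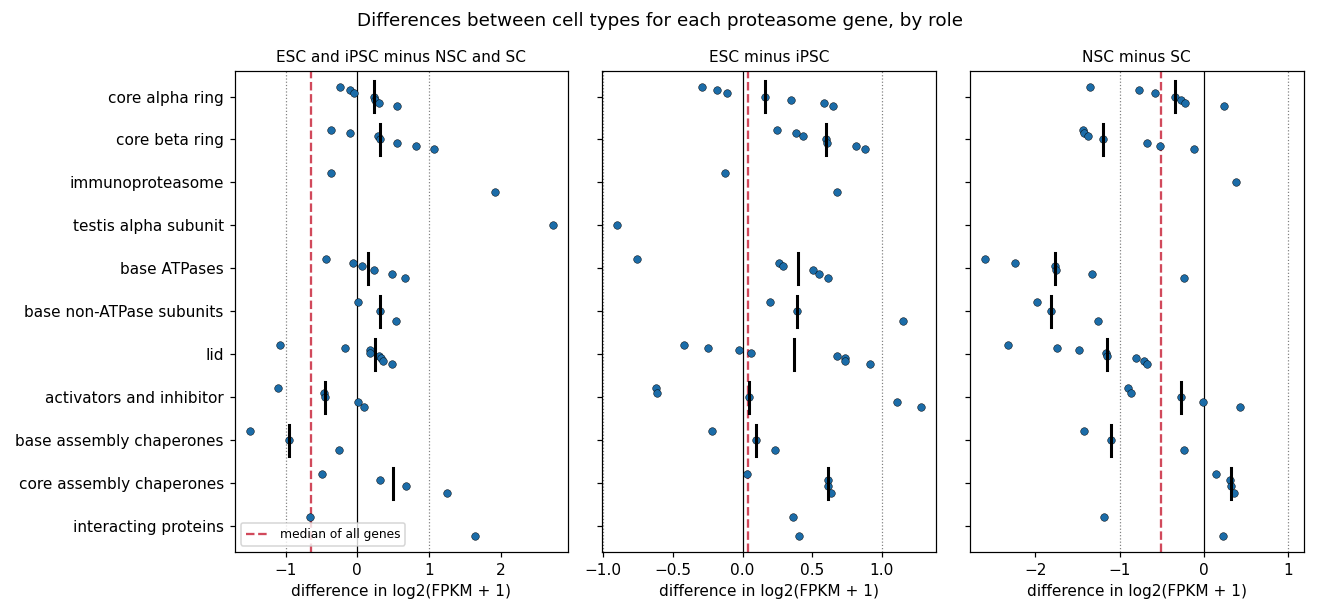
Differences in log2(FPKM + 1) between cell types for each proteasome gene with 1 FPKM or more in a library compared; points are genes, black bars the median of a role with 3 or more genes, the red dashed line the median of all genes and dotted lines a 2-fold difference. In the panel of NSC minus SC the base ATPases have a median of -1.76 and the core alpha ring of -0.34.

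Between the 2 pluripotent cell types, no proteasome gene was 2-fold higher in iPSC. Higher in ESC were Psme1 (2.43-fold), Psmd4 (2.22-fold) and Psme2 (2.16-fold). Among all 11425 genes, 13% were higher on the ESC side and 13.6% on the other, so that 3 of 48 and 0 of 48 were both smaller shares than the background. At a pseudocount of 0.1, Psma8 was counted as 2-fold higher in iPSC. The median difference was 0.37 for the proteasome genes, 0.60 for the beta ring and 0.04 for all genes, and scaling left the first at 0.38 and the counts at 3 and 0. The differences were therefore mostly smaller than 2-fold and 12 of the 48 genes lay below 0. Of the fibroblast and myoid markers, 3 of 5 were at least 2-fold higher in iPSC and 0 in ESC, while Thy1 and Pdgfrb were not higher in iPSC. The part of such cells in this comparison was not tested.

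Of the comparisons made, that of the 2 differentiated cell types had the most 2-fold differences. The first comparison was stricter, since both libraries of a pair had to lie beyond both of the other. Single libraries of different pairs, such as ESC and NSC, were not counted against each other. Of the 46 genes measured, 21 were at least 2-fold higher in SC and 0 in NSC, where 35.6% and 15% of all 12433 genes were. The 21 comprised 13 of the 17 regulatory particle genes, 5 of the 14 core genes (Psma4, Psmb2, Psmb3, Psmb5 and Psmb6), the base chaperones Psmd5 and Psmd9, and Psme3ip1. In the base and the lid the differences were largest for Psmc4 (6.06-fold), Psmd8 (5.01-fold), Psmc3 (4.73-fold), Psmd4 (3.93-fold) and Psmd1 (3.53-fold). The regulatory genes not 2-fold apart were Psmc6, Psmd3, Psmd6 and Psmd14. In the other direction, Psme4, Psmb10, the 4 core chaperones, Psma5 and Psmc3ip lay higher in NSC by 1.11-fold to 1.35-fold. The median was -0.83 for the proteasome genes, -1.48 for the regulatory particle, -0.63 for the core particle and -0.51 for all genes. The SC column is shifted upward as a whole. After scaling, 8 genes were 2-fold higher in SC (Psmc1, Psmc2, Psmc3, Psmc4, Psmd1, Psmd4, Psmd8 and Psmd13), all of the regulatory particle, and 0 in NSC. Over all genes scaling changed the counts from 1870 higher in NSC and 4424 in SC to 2734 and 2767 (22.6% and 22.8% of 12115 genes). The 8 genes were then a smaller share of the 46 than 22.8%, but a larger one of the 17 regulatory genes. The medians were then 0.03 for all genes, -0.05 for the core and -0.91 for the regulatory particle.

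Which library held a gene's lowest level showed the same split. Of the 46 proteasome genes at 1 FPKM or more in all 4 libraries, NSC was lowest for 27, whereas it was lowest for 20.6% of all 8259 such genes. It was lowest for 10 of 14 core genes and for 15 of 17 regulatory genes, the exceptions being Psmc6, lowest in ESC, and Psmd8, lowest in iPSC. Scaling changed these counts to 29 of 46, 8 of 14 and 16 of 17, against 23.4% of all genes. Psmc6 was then lowest in SC and Psmd8 in NSC. SC held the highest level of 27 of the 46 genes, close to the 55.5% of all genes for which it did so. After scaling SC was highest for 3 and ESC for 30 of the 46. In the regulatory particle SC was highest for 14 of 17 genes, and after scaling SC was for 1 and ESC for 12. The count for NSC was thus much the same under both, whereas that for SC was not.

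A ratio within one library does not depend on its scaling. The geometric mean of the 17 regulatory genes was 48.6% of that of the 14 core genes in ESC, 49.8% in iPSC, 69.2% in SC and 40.6% in NSC. The regulatory means were 116 FPKM in ESC, 91.8 in iPSC, 156 in SC and 55.6 in NSC, and the core means 238, 185, 226 and 137 FPKM. Relative to the alpha ring, the base ATPases stood at 71.8% in ESC, 67.9% in iPSC, 104% in SC and 45.1% in NSC, and the lid at 59.0%, 53.5%, 77.2% and 44.4%. ESC and iPSC were close to each other, with NSC below and SC above them. NSC stayed lowest and SC highest with medians, with sums, and without Psmd8, where the log2 ratio was -1.38 in NSC and -0.66 in SC.

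**Figure D3:**
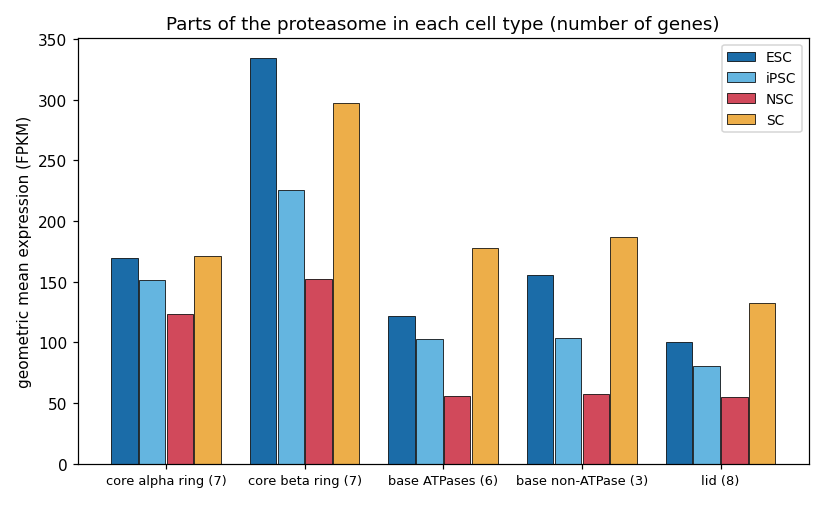
Geometric mean expression (FPKM) of the genes of each part of the proteasome in the 4 cell types; each bar is 1 RNA library, and the number of genes is in brackets. From the alpha ring to the base ATPases, the bar falls from 124 to 55.7 FPKM in NSC, whereas in SC it stands at 171 and 178 FPKM.

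Proteasome parts and partners outside the symbol rule were looked at as a list of 10 genes, 9 of them measured. Of the 9, 1 was 2-fold higher in both differentiated libraries (12.49% of all genes) and 0 in the pluripotent ones (5%), 2 were higher in ESC (13%) and 2 in iPSC (13.6%), and 3 were higher in SC, near the 35.6% of all genes. After scaling 0 were higher in both differentiated libraries (6.56% of all genes) and 1 in the pluripotent ones (8.46%), and 1 each in NSC (22.6%) and SC (22.8%). Adrm1, a ubiquitin receptor of the base, stood at 128 FPKM in ESC, 105 in iPSC, 146 in SC and 48.0 in NSC, the order of its neighbour Psmd1. Pomp, which matures the core, stood at 269.8, 129, 300.3 and 113 FPKM. Sem1, the small lid subunit, stood at 394 FPKM in ESC, 168 in iPSC, 430.3 in SC and 311 in NSC. The first 2 were lowest in NSC and the third in iPSC, also after scaling. Ecpas, a scaffold that binds the assembled particle, was the one gene of the list higher in both differentiated libraries, with 2.91 and 5.27 FPKM in ESC and iPSC against 26.4 and 19.9 in NSC and SC. Usp14, the deubiquitinase of the base, stood at 11.7, 26.5, 19.1 and 29.3 FPKM, and the ubiquitin ligase Ube3c at 4.81, 16.1, 23.3 and 15.9 FPKM. Both were lowest in ESC, but Usp14 after scaling in SC (12.3, against 14.8 in ESC).

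Among 12 shuttle factors and ubiquitin genes, 0 were 2-fold higher in the pluripotent pair (5% of all genes) or in the differentiated pair (12.49%). Between ESC and iPSC, 2 were higher in iPSC (13.6%). Between NSC and SC, 4 were higher in SC, a share near the 35.6% of all genes, and 1 in NSC (15%). After scaling the counts were 0 for the pairs (8.46% and 6.56%), 2 in iPSC (14%), 2 in SC (22.8%) and 1 in NSC (22.6%). The unfoldase Vcp stood at 197 FPKM in ESC, 145 in iPSC, 556 in SC and 125 in NSC. Rad23b, a shuttle that carries ubiquitinated proteins to the base, stood at 43.3, 87.0, 185 and 58.4 FPKM. Both were highest in SC, also after scaling. Ddi2, the protease that activates NFE2L1, stood at 3.84 FPKM in ESC and 20.4, 12.6 and 14.7 in iPSC, NSC and SC, and the shuttle Ubqln2 at 3.47, 12.8, 23.97 and 24.2 FPKM.

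Of the factors known to switch proteasome genes on, 6 of 9 measured were higher in SC than in NSC by 2-fold or more, and 1 (Irf1) was higher in NSC, where 35.6% and 15% of all genes were. After scaling it was 4 and 3 of 9, against 22.8% and 22.6%. Nfe2l1, which raises proteasome genes when proteasome activity is short, stood at 22.2 FPKM in ESC, 7.54 in iPSC, 49.2 in SC and 10.8 in NSC. That is its most abundant of 6 transcripts; their sum was 37.7, 36.9, 125 and 48.8 FPKM. Nfe2l2, the antioxidant response factor, stood at 21.1, 19.4, 131 and 30.4 FPKM. Both were highest in SC, also after scaling. Rela, a subunit of NF-kappaB, stood at 10.1, 7.61, 74.0 and 15.3 FPKM, and its partner Nfkb1 at 2.77, 8.11, 28.1 and 12.1 FPKM. Nfya, which binds CCAAT boxes, was higher in both differentiated libraries, with 2.02 and 1.80 FPKM in ESC and iPSC against 21.2 and 10.5 in NSC and SC. That is the more abundant of its 2 transcripts. Their sum differed less, with 7.72 and 8.58 FPKM in ESC and iPSC against 23.8 and 12.4 in NSC and SC.

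Antigen processing genes were a list of 11. Of these, 5 were 2-fold higher in both differentiated libraries and 0 in the pluripotent ones, where 12.49% and 5% of all genes were. After scaling the counts were 4 and 0, against 6.56% and 8.46%. B2m, the light chain of class I molecules, stood at 28.5 FPKM in ESC, 21.2 in iPSC, 1040.3 in SC and 181 in NSC. H2-K1, a class I heavy chain, stood at 23.6, 13.4, 85.9 and 73.4 FPKM. Ifngr2, a chain of the interferon gamma receptor, stood at 1.74, 1.46, 102 and 10.8 FPKM. These 3 were higher in NSC and SC, whereas Psmb9 was higher in ESC and iPSC; Psmb10 had its highest level in NSC. Tap1, the peptide transporter whose gene lies next to Psmb9, stood at 3.47 FPKM in ESC, 1.34 in iPSC, 4.27 in SC and 1.97 in NSC, and showed no such split.

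Promoter sequences were looked at because 13 of the 17 regulatory particle genes (8 after scaling) were 2-fold higher in SC than in NSC. RefSeq promoters (250 bases before to 50 after the start, GRCm38.p6) were at hand for 41 of the 49 genes and 12101 of the genes in the table. The letters CGGAAG, a form of the core that ETS factors bind, lay on one or the other strand in 13 of 14 regulatory particle promoters and in 3 of 11 core particle promoters, against 29.02% of all promoters. The regulatory promoter without it was that of Psmc5. Psmc5 was 2.52-fold higher in SC than in NSC, but not 2-fold apart after scaling (log2 difference -0.76). Of the regulatory genes that carry the motif, Psmc6, Psmd6 and Psmd14 were not 2-fold apart. The others, Psmc1, Psmc2, Psmc4, Psmd1, Psmd2, Psmd4, Psmd8, Psmd11, Psmd12 and Psmd13, were at least 2-fold higher in SC. After scaling Psmd2, Psmd11 and Psmd12 no longer were. With the motif in 13 of 14 promoters, whether it goes with the levels was not tested. The letters CGGAAG also lay in 5 other genes, which makes 21 of 41. The longer form CCGGAAGT, which contains it, lay in 5 of 14, 0 of 11 and 7.39%. CCAAT lay in 4 of 14 regulatory and 6 of 11 core promoters, against 39.2% of all. TGACNNNGC, the core of the antioxidant response element that NFE2L1 and NFE2L2 bind, lay in 2 of 14, 2 of 11 and 14.7%. These motifs were singled out of all those searched after the counts were seen, so the shares are a description, and a match is not a binding site. The promoters of Psmc4 and Psmd4, whose levels differed most between NSC and SC in their parts of the base, are shown with CGGAAG in capitals, either as such or as its reverse complement CTTCCG. The promoter of the core gene Psmb6 is shown with TGACNNNGC in capitals. Psmc4 lies on the minus strand at chr7:28050043-28050342, Psmd4 on the minus strand at chr3:95042565-95042864 and Psmb6 on the plus strand at chr11:70525107-70525406.
Psmc4 promoter: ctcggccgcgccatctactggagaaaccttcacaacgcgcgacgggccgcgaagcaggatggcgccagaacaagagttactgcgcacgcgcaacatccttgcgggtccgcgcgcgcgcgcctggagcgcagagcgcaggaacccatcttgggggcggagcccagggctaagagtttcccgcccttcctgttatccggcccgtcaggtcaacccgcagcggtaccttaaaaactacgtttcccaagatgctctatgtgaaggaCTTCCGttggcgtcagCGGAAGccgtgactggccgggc
Psmd4 promoter: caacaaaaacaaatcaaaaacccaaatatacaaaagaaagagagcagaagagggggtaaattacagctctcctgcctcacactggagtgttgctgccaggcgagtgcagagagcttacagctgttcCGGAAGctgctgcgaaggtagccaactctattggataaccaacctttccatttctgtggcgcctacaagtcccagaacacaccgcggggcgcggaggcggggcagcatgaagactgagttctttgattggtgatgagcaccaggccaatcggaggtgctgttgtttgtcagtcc
Psmb6 promoter: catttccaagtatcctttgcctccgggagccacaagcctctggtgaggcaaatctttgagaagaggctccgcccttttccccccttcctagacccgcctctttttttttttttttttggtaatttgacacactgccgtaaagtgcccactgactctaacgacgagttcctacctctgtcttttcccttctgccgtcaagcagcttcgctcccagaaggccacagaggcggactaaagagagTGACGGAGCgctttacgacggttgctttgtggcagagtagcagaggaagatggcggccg

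In Psmc4 the motif occurs 2 times, both downstream of the start of transcription, beginning 12 and 28 bases after it. In Psmd4 it occurs 1 time, beginning 124 bases before the start, and in Psmb6 the other motif begins 9 bases before the start.

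The m6A data are calls of yes or no for 5 regions of each transcript, which the table names 5' UTR, CDS (coding sequence), 3' UTR, TcSS and TsTS. TcSS and TsTS are not spelled out there; TsTS is the column between the coding sequence and the 3' UTR. In m6A (N6-methyladenosine) a methyl group sits on an adenosine of the mRNA, mostly one within GGAC, often near the stop codon, and it is known to shorten the life of many mRNAs. A call carries no height, and shares are given over genes at 1 FPKM or more in that cell type.

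Few transcripts of the constitutive core particle were called. A call in any region was made for 6 of 14 core genes in ESC, 3 in iPSC, 3 in SC and 2 in NSC. For the 17 regulatory genes the counts were 12, 11, 11 and 12. Over all proteasome genes they were 29 of 48 in ESC, 21 of 48 in iPSC, 24 of 46 in SC and 21 of 46 in NSC, where 69% (ESC), 69.2% (iPSC), 66.7% (SC) and 58% (NSC) of all genes were called. The core shares were 42.9% in ESC (exact 95% interval over genes 17.7 to 71.1), 21.4% in iPSC (4.66 to 50.8), 21.4% in SC (4.66 to 50.8) and 14.3% in NSC (1.78 to 42.8). The regulatory shares were 70.6% (44.0 to 89.7), 64.7% (38.3 to 85.8), 64.7% (38.3 to 85.8) and 70.6% (44.0 to 89.7). These intervals cover counting error over genes only. The core interval lay below the share of all genes in iPSC, NSC and SC and included it in ESC. Core transcripts are short, with a median of 1162.5 nt and 744 nt of coding sequence, against 1636 and 1257 nt in the regulatory particle and 2808 and 1329 nt over all genes. Among genes with FPKM and length between the quartiles of the core genes, 65.8% of 38 were called in ESC, 47.1% of 17 in iPSC, 61.5% of 26 in SC and 22.2% of 18 in NSC. The core share was lower than each of these, but the exact intervals overlapped in every library. For the regulatory genes the like backgrounds were 83.0%, 80.0%, 66.8% and 45.6%, on both sides of their own shares. For all proteasome genes together they were 78.5% in ESC, 64.6% in iPSC, 63.5% in SC and 43.7% in NSC. The share of the proteasome genes was lower in ESC, iPSC and SC, but not in NSC, where it was 45.7%.

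**Figure D4:**
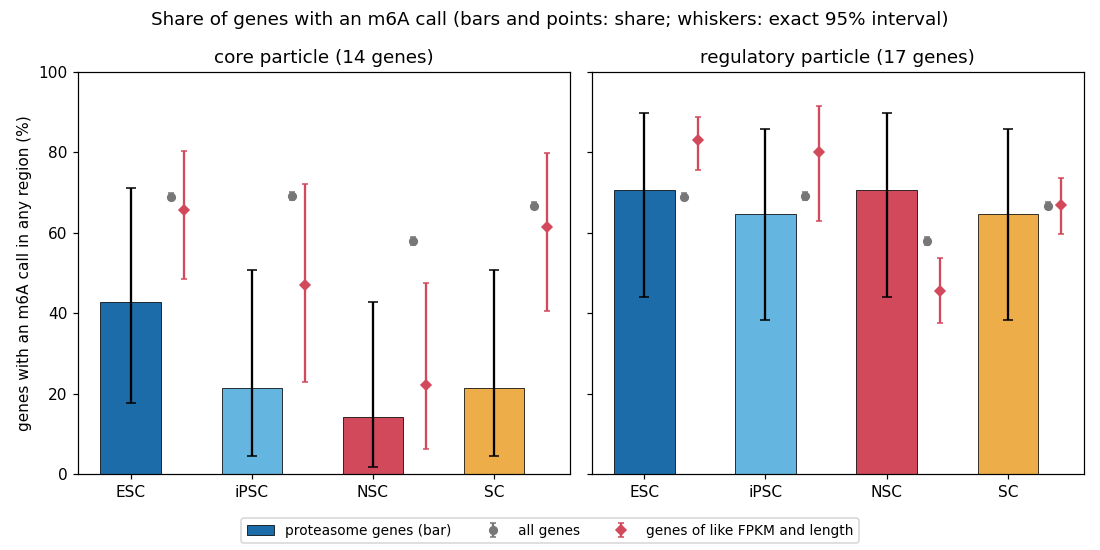
Percent of genes with an m6A call in any region for the core particle (left) and the regulatory particle (right) in each cell type; bars are the proteasome genes, grey points all genes at 1 FPKM or more, red points genes whose FPKM and transcript length lie between the quartiles of the same proteasome genes, and whiskers exact 95% intervals over genes. The core bars lie between 14.3% and 42.9%, below both sets of points in each cell type.

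Calls were also counted by region. Calls in the coding sequence were made for 14 proteasome genes in ESC, 11 in iPSC, 13 in SC and 15 in NSC, against 40.8%, 45.2%, 46.1% and 43.6% of all genes. Of these, 9, 8, 9 and 10 were regulatory particle genes, while in the core particle Psmb3 in NSC was the one such call. TsTS calls were made for 15, 11, 14 and 11 proteasome genes, against 48.5%, 47.5%, 43.1% and 36.8%. In the 3' UTR there were 6, 6, 3 and 3, against 26%, 32.3%, 22% and 27.1%. The 5' UTR had 0, 0, 1 (Psmb10) and 0, against 3.13%, 4.58%, 4.71% and 5.07%. TcSS counts were uneven between cell types: 16 proteasome genes were called there in ESC, 2 in iPSC, 5 in SC and 4 in NSC, against 16.5%, 11.9%, 12.2% and 12.48% of all genes. In ESC that was 33.3% of the 48 genes (20.4 to 48.4).

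**Figure D5:**
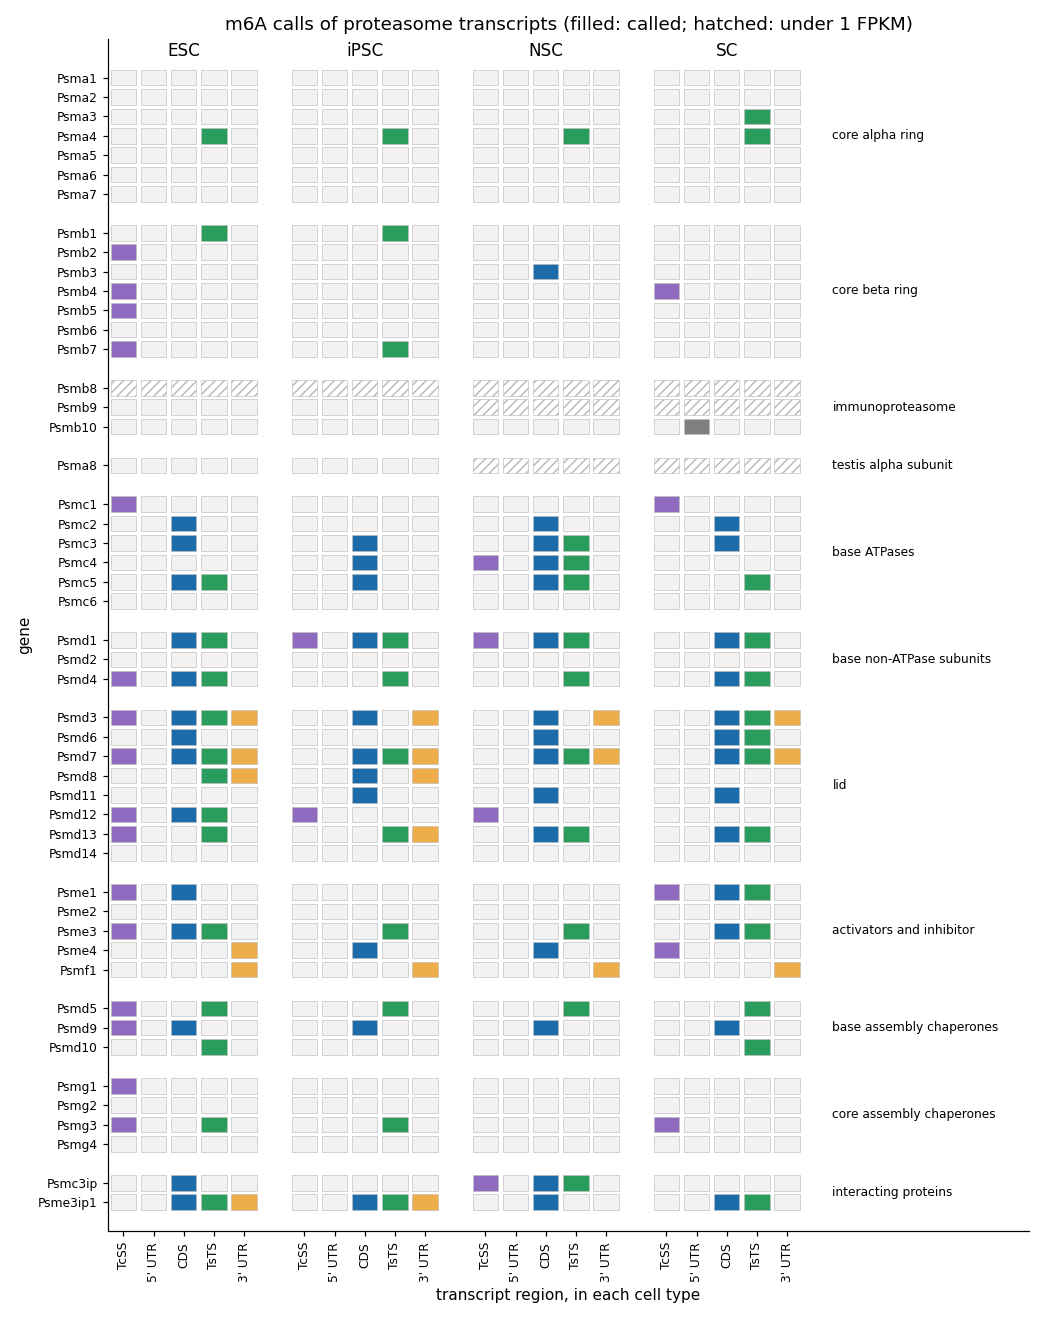
m6A calls of each proteasome gene (rows, grouped by role) in 5 transcript regions of each of 4 cell types (columns); a filled cell is a call, a pale cell no call and a hatched cell a gene under 1 FPKM in that cell type. Filled cells are sparse in the alpha and beta rings and dense in the base and the lid, and 16 of the 51 filled cells of ESC are in the TcSS column.

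Calls were compared between cell types over the 46 genes at 1 FPKM or more in all 4. A call in some region in all 4 cell types was found for 14 genes, against 45.7% of all 8259 such genes, and no call in any for 12 genes, against 14.3%. In the core, 1 of 14 genes (Psma4) was called in all 4 cell types and 6 in none: Psma1, Psma2, Psma5, Psma6, Psma7 and Psmb6. In the regulatory particle 7 of 17 were called in all 4 (Psmc3, Psmc5, Psmd1, Psmd3, Psmd4, Psmd7 and Psmd13) and 3 in none (Psmc6, Psmd2 and Psmd14). The remaining genes called in all 4 were the activators Psme3 and Psme4, the inhibitor Psmf1, the base chaperones Psmd5 and Psmd9, and Psme3ip1. Those called in none were Psme2 and the core chaperones Psmg2 and Psmg4.

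Partners within the particle had opposite calls. Psmd1 was called in the coding sequence and TsTS in all 4 cell types, and in TcSS in iPSC and NSC, whereas its sister scaffold Psmd2 was not called in any region of any cell type. The transcripts are of like length, 3112 nt for Psmd1 and 2961 nt for Psmd2, and Psmd2 was the more abundant in each library. Their coding sequences hold 7 and 11 GGAC. Psmd7 was called in the coding sequence, TsTS and 3' UTR in all 4 cell types, whereas Psmd14, with which it pairs in the lid, had no call. Here the lengths are 1581 and 1541 nt, and the coding sequences hold 9 and 6 GGAC. In the ATPase ring, Psmc3 had a coding sequence call in all 4 cell types and Psmc6 none, with 8 and 9 GGAC. In the first and the third of these 3 pairs the uncalled gene thus holds more GGAC than the called one. As a set the proteasome genes went the other way. Those with a coding sequence call held a median of 7 GGAC in ESC, 8 in iPSC, 7 in SC and 7 in NSC. Those without one held 4.5, 4, 4 and 4 in the same order. Per kb these were 6.00 against 4.76 in ESC, 6.02 against 5.23 in iPSC, 6.02 against 4.59 in SC and 6.19 against 4.54 in NSC. Over all genes called ones held more in each library too, such as 9 against 5 in ESC.

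Several genes had a call in some cell types only. Psmb4, the core gene with the highest mean after Psmb3, was called in TcSS in ESC and SC. Psmb3 was called in NSC alone, where it stood at 123 FPKM, and not in ESC, where it stood at 573. Psmd8 was called in ESC (TsTS and 3' UTR) and iPSC (coding sequence and 3' UTR), and not in NSC or SC, the library in which its level was highest. Psmb1 was called in TsTS in ESC and iPSC. Psmb7 was called in TcSS in ESC and in TsTS in iPSC. TcSS calls in ESC alone were the calls of Psmb2, Psmb5 and Psmg1. Psmc1 was called in TcSS in ESC and SC, and Psmc4 was called in iPSC and NSC, the libraries where it was lowest. Psmc2 was called in the coding sequence everywhere but in iPSC, and so was Psmd6. Psma3 was called in SC alone, in TsTS. Psmd11 was called in the coding sequence everywhere but in ESC, and Psmd12 in ESC alone, though it had TcSS calls in ESC, iPSC and NSC. Psme1 was called in ESC and SC, with the coding sequence and TcSS in both. Of the genes outside the particle, Psmd10 had TsTS calls in ESC and SC, Psmg3 was called in every cell type but NSC, and Psmc3ip was called in ESC and NSC. With 1 library for each cell type, none of these differences in calls could be checked.

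The sequence around the stop codon was read from GENCODE M21 transcripts (GRCm38), which were at hand for all 49 genes. GGAC lay within 100 nt of the end of the coding sequence in 30 of the 49 genes and in 61.3% of all 14545 genes with a sequence. By part, it did so in 6 of 14 core and 11 of 17 regulatory genes. Over all genes in ESC, 72.0% of those with a TsTS call and 52.8% of those without one had it; for the proteasome genes these were 9 of 15 and 20 of 33. In iPSC they were 71.5% and 52.1% over all genes, and 6 of 11 and 23 of 37 in the proteasome genes. In SC they were 70.3% and 54.5%, and 10 of 14 and 17 of 32. In NSC they were 71.2% and 56.0% over all genes, and 9 of 11 and 18 of 35 in the proteasome genes. GGAC was thus more frequent among called proteasome genes in SC and NSC, and not in ESC or iPSC. GGACT, the form the writer enzyme is known to prefer, lay there in 3 of 15 called and 9 of 33 uncalled proteasome genes in ESC, and in 5 of 11 and 7 of 35 in NSC. In iPSC these were 2 of 11 and 10 of 37, and in SC 4 of 14 and 8 of 32. Over all genes GGACT lay there in 31.1% of called and 18.6% of uncalled genes in ESC, and 33.2% and 16.6% in iPSC. In SC the shares over all genes were 30.7% and 20.0%, and in NSC 32.8% and 19.8%. Coding sequences of core genes held a median of 3.5 GGAC (4.41 per kb), those of regulatory genes 7 (6.19 per kb) and those of all genes 7 (4.97 per kb).

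The 7 genes with a TsTS call in all 4 cell types were Psma4, Psmd1, Psmd4, Psmd5, Psmd7, Psmd13 and Psme3, against 22.2% of the 8259 genes at 1 FPKM or more in all 4. In 5 of them GGAC lies near the stop codon, and it does not in Psma4 and Psmd1. For comparison, Psma1 and Psma5 have GGAC there as well and no TsTS call in any cell type. The site nearest the stop codon is shown for the 5 called genes that have one and for the uncalled Psma1 and Psma5. Each has 30 bases on the transcript's strand, with GGAC in capitals.
Psmd4: tgtgtctgcccggGGACtgtaaagacgggg
Psmd5: gctccacaccacaGGACgtctgtcttccca
Psmd7: attcagtgcttgtGGACaagcgctctgccc
Psmd13: aacaccaggctcaGGACatcctcacctagt
Psme3: ggccagggccaggGGACtttgtgagtctgg
Psma1: ataaaggttacaaGGACataagaatgcagg
Psma5: aggaggtgatcaaGGACatttaagaaggag

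These windows lie, in GRCm38 and with the distance from the first base of the stop codon to the first base of GGAC, for Psmd4 at chr3:95032765-95032794 (minus strand, 35 nt), for Psmd5 at chr2:34852494-34852523 (minus strand, 68 nt), for Psmd7 at chr8:107580776-107580805 (minus strand, 94 nt), for Psmd13 at chr7:140898260-140898289 (plus strand, -13 nt) and for Psme3 at chr11:101321879-101321908 (plus strand, 22 nt). Those of the uncalled genes lie for Psma1 at chr7:114264867-114264896 (minus strand, 19 nt) and for Psma5 at chr3:108279790-108279819 (plus strand, -7 nt). A positive distance is in the 3' UTR and a negative one in the coding sequence. GGAC thus lies near the stop codon of called and uncalled proteasome genes.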

How the data were processed

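The authors computed FPKM values from RNA-seq and deposited them in 1 table with 1 line per RefSeq transcript. The m6A calls (1 called, 0 not) are the authors' other deposited values, per the file headers, for 5 regions of each transcript; they are used as yes/no values with no scale. CASAVA, Cufflinks 2.0.2, TopHat2 2.0.4 and the mm9 build stand in the submitters' processing notes without a role. How m6A peaks were called is not given in the sources used here.

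Of 19776 transcripts, 19446 were named through a RefSeq table (GRCm38.p6) and 104 through GENCODE M21; 226 had no match. For a gene with several transcripts, the one with the highest mean FPKM was used. Differences were taken as log2(FPKM + 1), with a pseudocount of 1, over genes reaching 1 FPKM in a compared library; 2-fold or more was counted. With 1 library per cell type and assay, there are no p-values. Shares carry exact Clopper-Pearson 95% intervals. The counting steps were tested on simulated data. Read depth is unknown, since low FPKM values showed no common step between libraries (at most 0.878% of genes in one bin of the ratio), so no counting interval is given for an FPKM.

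Transcript sequences came from GENCODE M21 (94.7% of genes, the first transcript by ID) and promoters from RefSeq. In promoters 10 motifs were searched on both strands: TGACNNNGC with the narrower TGACNNAGC (antioxidant response element), CCAAT (NF-Y), CGGAAG with the longer CCGGAAGT (ETS factors), GAAANNGAA (interferon response), GGGNNTTCC (NF-kappaB), GGAANTTCC (STAT-like), and GTGACC with the longer GGTGACC (E-box-like). A longer interferon repeat, longer NF-kappaB sites, a palindromic site of nuclear respiratory factor and a spaced pair of CCAAT boxes were searched too and are not reported.

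Genes named in the text are those outside the core and regulatory particles, those 2-fold apart in a comparison, the 15 most expressed of those whose calls differ between cell types, and the extremes of each part; others were named after their values were seen. The genes and lists were chosen with earlier results of these data known, and so were the lowest-library counts, the ratio of regulatory to core genes, the motifs and the joint background of FPKM and length. Python 3.11.15, pandas 2.3.3, numpy 2.4.6, scipy 1.17.1 and matplotlib 3.10.9 were used. The genes Psmb11 and Psme2b were not analysed here. A stop codon site and some genes of the lists are counted but not reported here.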

Additional observations from a re-analysis of the deposited data

How the results depend on the processing

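No paired analysis was possible because each cell type had 1 library per assay. The 12 alternative settings for the share of proteasome genes with an m6A call, and the 60 for counts by region, left each count within 1.5 times its value. These settings could change little, since only 4 of the 49 genes have several transcripts and few lie under 5 FPKM. Of the 50 for RNA counts, 43 stayed within that range. The exceptions for the pluripotent against the differentiated pair were 0 genes higher in ESC and iPSC at a pseudocount of 5 and 9 without SC, and 0 genes higher in NSC and SC after scaling, 3 without ESC and 4 without NSC. For ESC against iPSC it was 1 gene higher in iPSC at a pseudocount of 0.1, and for NSC against SC 8 genes higher in SC after scaling. The median of the first comparison reversed to -0.0092 without ESC and to -0.35 without NSC. The ratio of immunoproteasome to constitutive genes depends on the pair, as log2 in ESC, iPSC, NSC and SC. It was -10.41, -8.76, -9.36 and -9.74 for Psmb8 over Psmb5, -6.32, -6.59, -9.48 and -10.24 for Psmb9 over Psmb6, and -4.61, -4.23, -3.15 and -4.24 for Psmb10 over Psmb7. The regulatory to core log2 ratio, -1.04, -1.01, -1.30 and -0.53, became -0.92, -0.77, -1.33 and -0.74 with medians and -0.75, -0.76, -0.99 and -0.11 with sums; these settings were added after seeing the data. Without Psmd8 it was -1.08 in ESC, -1.38 in NSC and -0.66 in SC. Where no alternative shows it by its construction, the cause was not tested. A missing call can mean too few reads, since depth is unknown, and a single library gives no spread against which a fold change could be set.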
